A study of Mus musculus with 15 samples.

Results

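Lyz1, Mmp7, Nupr1, Itln1, Ang4 and Pla2g2a are genes associated with Paneth cells, and their transcripts were followed across isolated epithelium of the mouse jejunum and ileum. They were chosen by name, as the transcript clusters (probe groups) whose only gene symbol is one of these 6. All 6 were found among 19938 named genes, each with 1 cluster, and all 6 were among the 11784 genes that passed the filter on low signal. RNA from 15 samples was hybridised to Affymetrix Mouse Gene 1.0 arrays, with n = 3 arrays in each of 5 groups. The groups were adult Gata4 conditional knockin (cKI) ileum, the ileum labelled control, jejunum labelled as adult Gata4 conditional knockout (cKO), and jejunum and ileum of adult wild-type (WT) CD1 mice. CD1 is an outbred stock, and the strain of the cKI, control and cKO mice, the promoter that drives Cre in them and the alleles that the controls carry are not given in the sources used here. No jejunal control is named for the cKO, so that stock and Gata4 allele cannot be told apart in any comparison of cKO, cKI or control with WT. The labels do not say that the 3 arrays of a group came from separate animals, and p-values therefore measure the spread between these samples, which may be technical.

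Paneth cells sit at the base of the small intestinal crypts, beside the stem cells, and release antimicrobial proteins from large granules into the crypt lumen. They arise from secretory progenitors that express the transcription factor Atoh1, and Wnt signals and Sox9 are needed for their formation. Lyz1 encodes lysozyme, which cleaves bacterial cell wall peptidoglycan, Ang4 an angiogenin-family ribonuclease with microbicidal activity, and Pla2g2a a secreted phospholipase that attacks bacterial membranes. Itln1 encodes intelectin, a lectin that binds microbial sugars and is also made by goblet cells, Mmp7 encodes matrilysin, the protease that activates alpha-defensin precursors in mouse Paneth cells, and Nupr1 encodes a small nuclear protein induced by stress that is not restricted to Paneth cells. Gata4 encodes a zinc-finger factor that is present in jejunal epithelium and scarce in the distal ileum.

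All values are deposited log2 signals, and differences are given as the first group minus the second with the standard error (SE) from limma. Each p-value was adjusted by the Benjamini-Hochberg method across all 11784 genes that entered the fit, and a gene was called when the adjusted value was below 0.05. Array medians lay between 4.82 and 5.0, and 3 arrays a group set the precision. Arrays of the same group correlated by at least 0.9695 over genes tested. Signal of different genes was not compared, since each cluster has its own probes. In bulk RNA, fewer cells of a type and less RNA per cell cannot be told apart.

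The Gata4 signal was 8.02, 8.43 and 8.17 in cKI ileum, against 6.71, 7.22 and 6.53 in control ileum, a difference of 1.38 ± 0.18 (SE, limma adjusted p = 0.00453). It was 9.72, 9.88 and 9.93 in the jejunum labelled cKO, against 9.68, 9.45 and 9.47 in WT jejunum (difference 0.31 ± 0.18, limma adjusted p = 0.322). The 3 arrays labelled cKO therefore did not show a lower Gata4 signal than WT jejunum. Whether the probes of this cluster lie in the deleted part of the gene is not given in the sources used here, and directions drawn from these arrays are those of the library labels.

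The region in front of the transcription start is shown for 4 genes with a call between groups, and for Lyz2, the closest relative of Lyz1. Each window covers 300 bases around a RefSeq start site on GRCm38.p6, read 5′ to 3′ in the direction of the gene, and RefSeq windows were found for 5 of the 6 genes, with 2 start sites for Mmp7, of which 1 is shown. Capitals mark 4 motifs, each searched on both strands. The GATA motif, the site that GATA factors bind, was searched as the word AGATAA, the word AGATAG, the word TGATAA and the word TGATAG. The others were the AP-1 motif TGANTCA, the TCF/LEF word CTTTGA and the composite ATF4/CHOP word TGATGNAA.
Lyz1 chr10:117292819-117293118, minus strand: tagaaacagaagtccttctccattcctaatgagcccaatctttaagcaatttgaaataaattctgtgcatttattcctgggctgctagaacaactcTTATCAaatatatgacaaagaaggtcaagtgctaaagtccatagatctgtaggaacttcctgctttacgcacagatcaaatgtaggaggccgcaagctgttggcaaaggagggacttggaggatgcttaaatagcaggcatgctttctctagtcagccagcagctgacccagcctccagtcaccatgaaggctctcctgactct
Lyz2 chr10:117282223-117282522, minus strand: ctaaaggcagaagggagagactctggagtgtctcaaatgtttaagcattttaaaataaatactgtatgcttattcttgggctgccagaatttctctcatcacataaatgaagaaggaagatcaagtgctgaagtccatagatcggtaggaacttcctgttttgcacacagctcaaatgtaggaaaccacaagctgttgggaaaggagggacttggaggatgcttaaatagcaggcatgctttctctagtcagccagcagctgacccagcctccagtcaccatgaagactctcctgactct
Ang4 chr14:51773541-51773840, minus strand: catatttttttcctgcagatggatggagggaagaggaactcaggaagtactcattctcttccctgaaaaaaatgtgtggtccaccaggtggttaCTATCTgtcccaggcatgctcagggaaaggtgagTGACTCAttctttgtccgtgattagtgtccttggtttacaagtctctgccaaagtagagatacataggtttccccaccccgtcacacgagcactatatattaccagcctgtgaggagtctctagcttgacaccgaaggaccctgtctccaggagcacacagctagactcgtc
Mmp7 chr9:7691840-7692139, plus strand: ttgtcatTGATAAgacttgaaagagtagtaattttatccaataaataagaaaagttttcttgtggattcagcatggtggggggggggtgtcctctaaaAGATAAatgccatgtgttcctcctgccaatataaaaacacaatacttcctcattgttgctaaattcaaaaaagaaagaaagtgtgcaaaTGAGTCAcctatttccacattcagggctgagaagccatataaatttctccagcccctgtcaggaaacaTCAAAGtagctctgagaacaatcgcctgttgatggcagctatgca
Nupr1 chr7:126625421-126625720, minus strand: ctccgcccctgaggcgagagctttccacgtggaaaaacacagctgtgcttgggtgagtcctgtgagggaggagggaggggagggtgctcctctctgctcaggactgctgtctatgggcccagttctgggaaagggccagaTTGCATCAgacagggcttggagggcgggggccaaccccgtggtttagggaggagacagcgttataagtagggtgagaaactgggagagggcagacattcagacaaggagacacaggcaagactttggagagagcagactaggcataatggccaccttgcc

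A GATA word began at position -154 from the start site in Lyz1, at -156 in Ang4, and at -243 and -152 in Mmp7. No such word lay in the windows of Nupr1, Itln1 or Lyz2. GATA words were present in 29.8% of the 32851 mouse promoter windows of this length. An AP-1 word, found in 7.8% of windows, began at -122 in Ang4 and at -63 in Mmp7, and a TCF/LEF word, found in 16.0%, at position 5 in Mmp7. An ATF4/CHOP word, found in 4.0% of windows, began at -110 in Nupr1 and in none of the other windows shown. Lyz1 and Lyz2 are neighbours in the genome. Compared position by position without gaps, their windows were identical at 99 of the last 100 bases and at 23 of the first 100. A base gained or lost in either window puts the positions upstream out of step, so the second count does not measure likeness there. The motif and base matches describe letters only, and the arrays did not measure binding.

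In cKI against control ileum, none of the 6 genes changed at the threshold. The lysozyme gene Lyz1 had signals of 13.08, 13.09 and 12.75 in cKI ileum, against 13.00, 13.07 and 12.89 in control ileum. The 2 sets overlapped, and the difference was -0.01 ± 0.14 with a 95% interval from -0.32 to 0.30 (limma adjusted p = 0.978). Ang4 had 9.81, 9.33 and 9.69 in cKI ileum, against 9.38, 9.82 and 9.68 in control ileum, again overlapping, with a difference of -0.02 ± 0.20 with an interval from -0.44 to 0.40. The Mmp7 signal was 10.11, 10.19 and 9.47 in cKI ileum, against 10.29, 9.58 and 9.98 in control ileum (interval -0.84 to 0.80). Neither gene separated the groups, and Mmp7 had the wider spread within them. Nupr1 had 8.60, 8.69 and 8.36 in cKI ileum, against 8.44, 8.36 and 8.37 in control ileum, a difference of 0.16 ± 0.19 (interval -0.24 to 0.56). Itln1 overlapped likewise, with 11.01, 10.90 and 10.55 in cKI ileum, against 10.73, 11.00 and 10.85 in control ileum (interval -0.38 to 0.30). For Pla2g2a the values were 9.27, 9.28 and 8.88 in cKI ileum, against 9.09, 7.997 and 8.58 in control ileum, and the interval ran from -1.89 to 3.06, so that a difference of several-fold in either direction was not detectable here. Of all genes tested, 0.764% were called in this comparison, 0.339% higher and 0.424% lower, so that 0 of 6 was close to the background share. The median difference of the 6 genes was -0.02, and that of all genes tested was 0.03.

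In the jejunum labelled cKO against WT jejunum, Ang4 fell and the other 5 genes were not called. The Ang4 signal was 8.15, 7.87 and 7.74 in the jejunum labelled cKO, against 9.91, 9.16 and 9.16 in WT jejunum. All 3 arrays labelled cKO lay below every WT array, and they also lay below all cKI, control and WT ileum arrays. The difference was -1.49 ± 0.20, or 2.81-fold lower (limma adjusted p = 0.000130), and it ranged from -1.62 to -1.24 with each array left out in turn, with adjusted p-values from 0.000251 to 0.00102. Called genes made up 12.8% of those tested in this comparison, 5.17% being higher and 7.65% lower, so that 1 of 6 was close to the background share. The Gata4 signal of these arrays was not lower, so the direction is that of the label, and the stock of the mice and the allele cannot be told apart for Ang4.

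**Figure D1:**
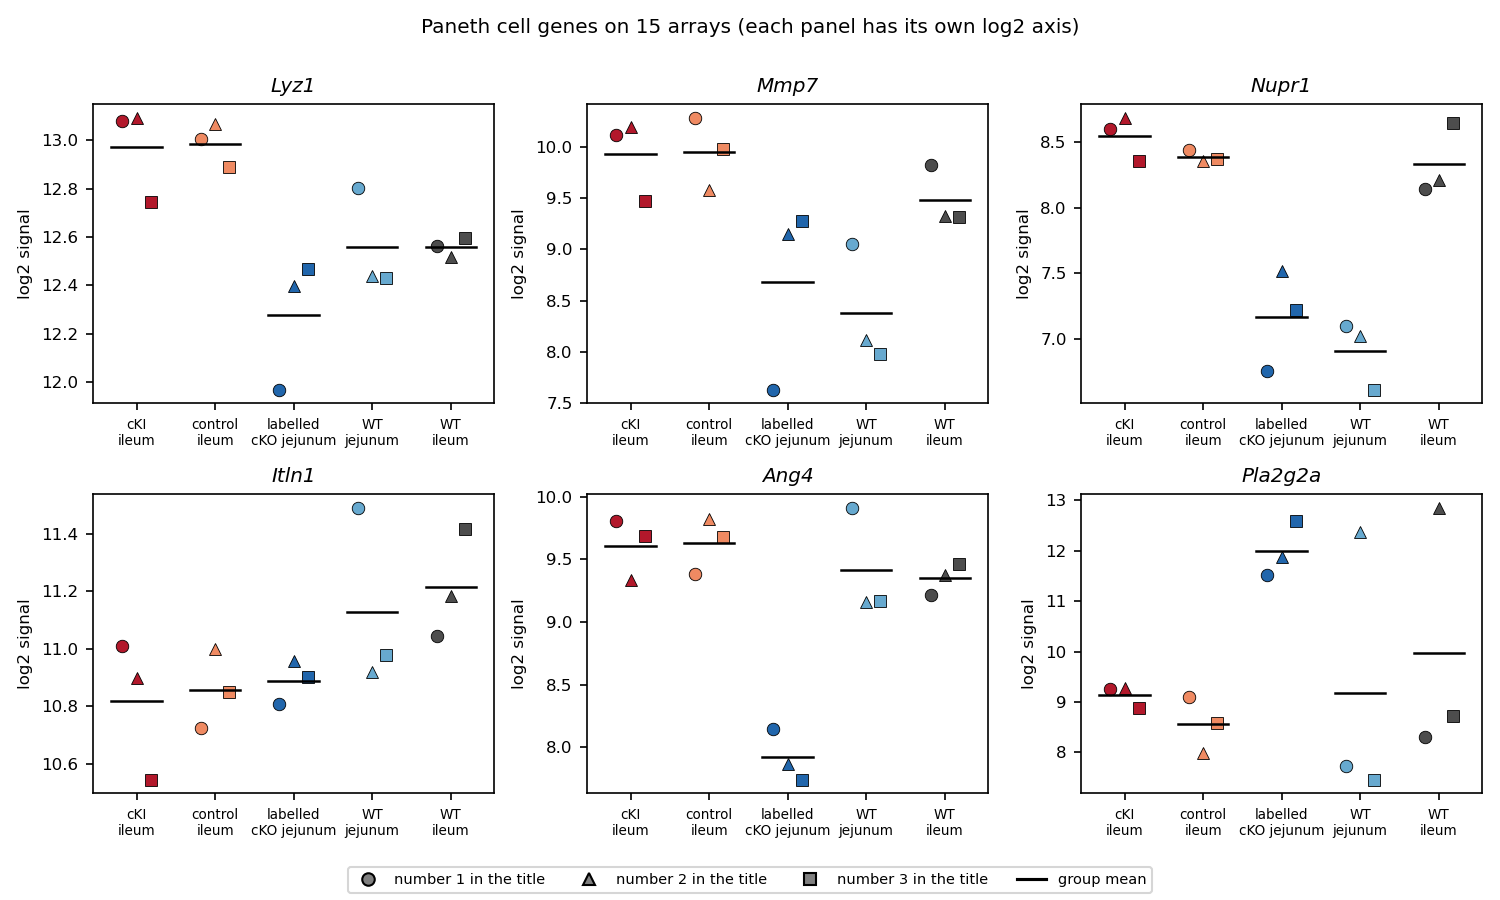
Deposited log2 signal of the 6 Paneth cell genes (vertical axes, one scale per panel) on the 15 arrays by group, with a symbol for each replicate number and a line at the group mean. Ang4 lies between 7.74 and 8.15 on the arrays labelled cKO and at 9.16 or higher on all others, and Nupr1 is at most 7.52 on the jejunal arrays and at least 8.15 on the ileal ones.

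Lyz1, Mmp7, Nupr1 and Itln1 overlapped between the jejunum labelled cKO and WT jejunum. Lyz1 had 11.97, 12.40 and 12.47 in the jejunum labelled cKO, against 12.80, 12.44 and 12.43 in WT jejunum (difference -0.28 ± 0.14, interval -0.59 to 0.03, limma adjusted p = 0.248). It was -0.12 without the first array labelled cKO and -0.16 without the first WT jejunum array. Mmp7 had 7.63, 9.15 and 9.28 in the jejunum labelled cKO, against 9.05, 8.11 and 7.98 in WT jejunum. One array in each group lay apart from its other 2, and the difference of 0.30 ± 0.38 (limma adjusted p = 0.678) became 0.83 (adjusted p = 0.102) without the first array labelled cKO. Nupr1 had 6.75, 7.52 and 7.22 in the jejunum labelled cKO, against 7.09, 7.02 and 6.61 in WT jejunum, a difference of 0.26 ± 0.19 with an interval from -0.15 to 0.66. Itln1 had 10.81, 10.96 and 10.90 in the jejunum labelled cKO, against 11.49, 10.92 and 10.98 in WT jejunum (difference -0.24 ± 0.16, interval -0.58 to 0.10), and the difference was -0.06 without the first WT jejunum array. The median difference over the 6 genes was 0.01, and over all genes tested it was -0.03.

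The phospholipase gene Pla2g2a had the widest spread of the 6 genes in both WT groups, with an SD of 2.76 in WT jejunum and 2.51 in WT ileum (n = 3 each). Its signal was 11.53, 11.88 and 12.59 in the jejunum labelled cKO, against 7.73, 12.37 and 7.46 in WT jejunum. In WT ileum it was 8.31, 12.86 and 8.73, so that WT arrays numbered 2 were high in both regions. The difference between the jejunum labelled cKO and WT jejunum, 2.81 ± 1.16, was not called (limma adjusted p = 0.136), and without the second WT jejunum array it was 4.40 (adjusted p = 0.00901). Between WT jejunum and WT ileum, arrays of the same number differed by -0.58, -0.48 and -1.27, all lower in jejunum. With the replicate number as a block the difference of -0.78 had an SE of 0.29 (limma adjusted p = 0.0810), against an SE of 1.16 without the block (adjusted p = 0.704). Left-out arrays moved the unblocked value between -2.37 and 0.67. The reference strain annotation of RefSeq, made from C57BL/6J mice, lists Pla2g2a as a transcribed pseudogene, and the gene is known to be disrupted in some inbred strains. Which form of the gene these mice carry was not tested.

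**Figure D2:**
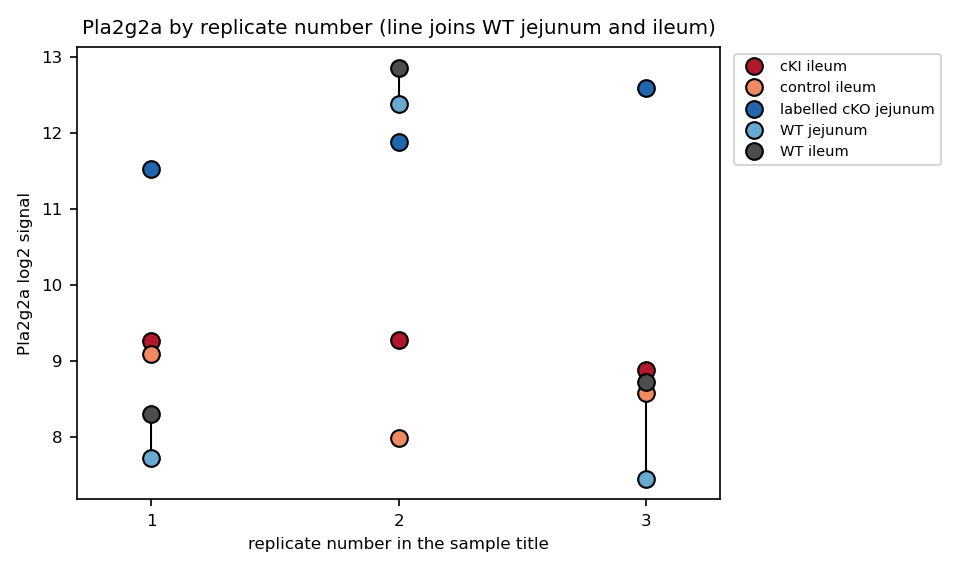
Deposited log2 signal of Pla2g2a (vertical axis) by the replicate number in the sample title (horizontal axis), with a colour for each group and a line that joins WT jejunum and WT ileum of one number. The WT arrays numbered 2 lie at 12.37 and 12.86, while the other WT arrays lie between 7.46 and 8.73 and the arrays labelled cKO between 11.53 and 12.59.

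Between the regions of wild-type mice, Nupr1 was lower in jejunum and Lyz1, Ang4 and Itln1 overlapped. Nupr1 had 7.09, 7.02 and 6.61 in WT jejunum, against 8.15, 8.21 and 8.65 in WT ileum. The groups did not overlap, and the difference was -1.43 ± 0.19, or 2.69-fold lower in jejunum (limma adjusted p = 5.74e-05, at most 0.000445 with any 1 array left out). Mmp7 had 9.05, 8.11 and 7.98 in WT jejunum, against 9.82, 9.32 and 9.31 in WT ileum. These groups did not overlap either, but the difference of -1.10 ± 0.38 missed the threshold (limma adjusted p = 0.0542). With the replicate number as a block it passed (SE 0.36, adjusted p = 0.0464), and it also passed without the first WT jejunum array (-1.44, adjusted p = 0.0228). Lyz1 had 12.80, 12.44 and 12.43 in WT jejunum, against 12.56, 12.52 and 12.60 in WT ileum, a difference of -0.001 ± 0.14 with an interval from -0.31 to 0.31. Ang4 had 9.91, 9.16 and 9.16 in WT jejunum, against 9.21, 9.38 and 9.46 in WT ileum, and Itln1 had 11.49, 10.92 and 10.98, against 11.04, 11.18 and 11.42. The first WT jejunum array was the highest of its group for Lyz1, Mmp7, Nupr1, Itln1 and Ang4. Of all genes tested, 21.3% were called between the WT regions, 13.4% higher and 7.91% lower in jejunum, so that 1 of 6 was not above the background share of calls. The median difference was -0.43 over the 6 genes and 0.004 over all genes tested.

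Control ileum differed from WT ileum in Lyz1, although that call was fragile. All 3 control arrays (13.00, 13.07 and 12.89) lay above all 3 WT ileum arrays (12.56, 12.52 and 12.60), with a difference of 0.43 ± 0.14 or 1.34-fold (limma adjusted p = 0.0394). The call was lost whichever of the 6 arrays was left out, at adjusted p-values from 0.0563 to 0.112, and with median centring at 0.0926. Itln1 lay lower on all 3 control arrays than on the WT ileum arrays, at -0.36 ± 0.16, and missed the threshold (limma adjusted p = 0.111). Mmp7 (0.46 ± 0.38), Ang4 (0.28 ± 0.20), Nupr1 (0.05 ± 0.19) and Pla2g2a (-1.41 ± 1.16) were not called and overlapped between the groups. In this comparison 27.9% of all genes were called, 19.3% being higher and 8.61% lower in the control, so that 1 of 6 was at or below the background. The lean towards higher calls depended on the scaling, as 69.1% of called genes were higher in the control in the deposited values and 47.9% after quantile normalization.

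**Figure D3:**
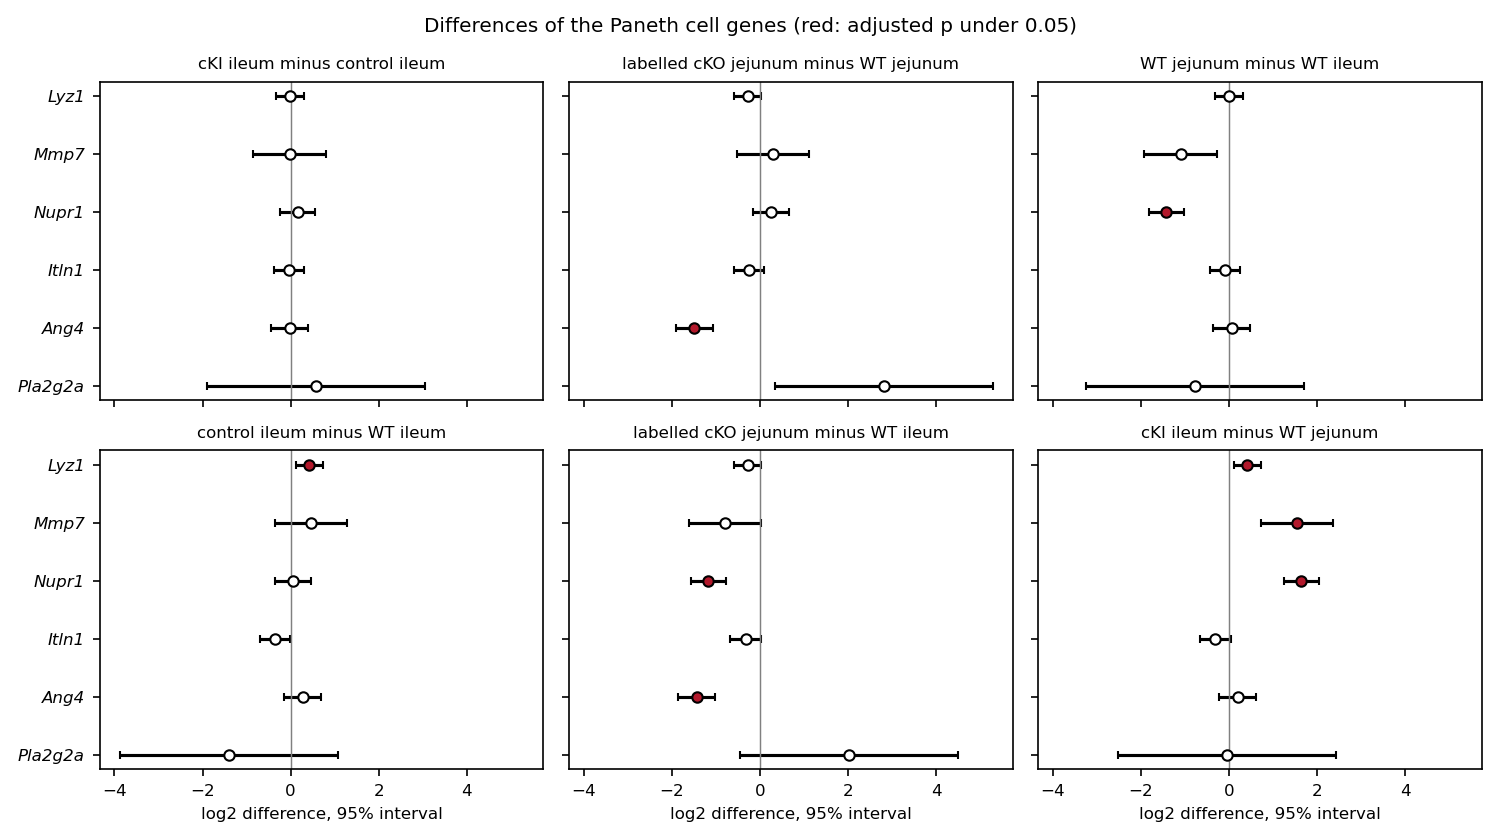
Log2 difference of each Paneth cell gene (circles, horizontal axes) with its 95% interval from limma (bars) in 6 comparisons, one per panel, in red where the adjusted p was below 0.05. Ang4 is the only gene in red in the jejunum labelled cKO against WT jejunum (-1.49), Nupr1 the only one between the WT regions (-1.43), and none is in red in cKI against control ileum.

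The remaining pairs of groups repeat arrays used above and mix region, stock and allele, and are given for the order of the groups. The jejunum labelled cKO lay below WT ileum in Nupr1 (-1.17 ± 0.19, limma adjusted p = 0.00236) and Ang4 (-1.43 ± 0.20, adjusted p = 0.000727), 2 of 6 genes where 5.1% of all genes were called, 3.26% higher and 1.84% lower. Lyz1 (-0.28 ± 0.14, limma adjusted p = 0.307) and Itln1 (-0.32 ± 0.16, adjusted p = 0.282) were not called between these groups. Mmp7 was not called either, at -0.80 ± 0.38 (limma adjusted p = 0.267) and -0.27 without the first array labelled cKO. cKI ileum lay above WT jejunum in Nupr1 (1.64 ± 0.19, limma adjusted p = 1.27e-05), Mmp7 (1.54 ± 0.38, adjusted p = 0.00506) and Lyz1 (0.42 ± 0.14, adjusted p = 0.0314), 3 of 6 genes where 41.8% of all genes were called, 25.5% higher and 16.3% lower. The Lyz1 call was lost in 4 of the 6 fits that left out an array, at adjusted p-values up to 0.109. Markers of other compartments moved in this comparison too, with 19 of 21 proliferation genes (median 0.76), 12 of 15 crypt stem cell genes (median 0.48) and 10 of 15 goblet cell genes (median 0.60) higher in cKI ileum. Of 13 villus enterocyte genes, 12 were lower and 1 higher (median -1.14), and the part of these compartments in the calls of Nupr1, Mmp7 and Lyz1 was not tested.

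Of the 6 genes, 5 were called in the jejunum labelled cKO against control ileum, where 31.1% of all genes were. Ang4 (-1.71 ± 0.20), Nupr1 (-1.23 ± 0.19) and Lyz1 (-0.71 ± 0.14) were lower in every fit that left out an array, while Mmp7 (-1.26 ± 0.38, limma adjusted p = 0.0218) kept its call in 3 of the 6. Pla2g2a was higher, at 3.44 ± 1.16 (limma adjusted p = 0.0351), and all 3 arrays labelled cKO lay above all 3 control arrays. That call was lost whichever of the 6 arrays was left out, at adjusted p-values from 0.0534 to 0.0970. In cKI ileum against the jejunum labelled cKO, 4 of 6 genes were called, where 36.5% of all genes were, and Ang4 (1.69 ± 0.20), Nupr1 (1.39 ± 0.19), Mmp7 (1.24 ± 0.38) and Lyz1 (0.70 ± 0.14) were higher. Mmp7 kept that call in 3 of the 6 fits that left out an array. WT jejunum lay below control ileum in Mmp7 (-1.57 ± 0.38), Nupr1 (-1.48 ± 0.19) and Lyz1 (-0.43 ± 0.14), 3 of 6 genes where 40.8% of all genes were called, and Lyz1 kept its call in 2 of the 6 fits that left out an array. In cKI against WT ileum, 1 of 6 genes was called, where 36.1% of all genes were. This was Lyz1 (0.42 ± 0.14, limma adjusted p = 0.0365), which kept its call in 1 of the 6 fits that left out an array. Directions for the arrays labelled cKO are again those of the label.

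By mean signal the 5 groups stood in a different order for each gene, but most neighbouring means did not differ at the threshold. Means are given as mean ± SD of n = 3 arrays. Nupr1 averaged 8.55 ± 0.17 in cKI ileum, 8.39 ± 0.05 in control ileum, 8.34 ± 0.27 in WT ileum, 7.16 ± 0.39 in the jejunum labelled cKO and 6.91 ± 0.26 in WT jejunum. Among these neighbours only WT ileum and the jejunum labelled cKO differed at the threshold, at the step between ileum and jejunum. Mmp7 followed the same region order, at 9.95 ± 0.35 in control ileum, 9.93 ± 0.39 in cKI ileum, 9.49 ± 0.29 in WT ileum, 8.69 ± 0.92 in the jejunum labelled cKO and 8.38 ± 0.58 in WT jejunum, and none of its neighbouring groups differed at the threshold. Lyz1 averaged 12.99 ± 0.09 in control ileum, 12.97 ± 0.20 in cKI ileum, 12.56 ± 0.04 in WT ileum, 12.56 ± 0.21 in WT jejunum and 12.28 ± 0.27 in the jejunum labelled cKO. Its only step past the threshold was between cKI ileum and WT ileum (limma adjusted p = 0.0365). Ang4 stood between 9.35 and 9.63 in 4 groups and at 7.92 ± 0.21 in the jejunum labelled cKO, with the 1 step at WT ileum against the jejunum labelled cKO. Itln1 means ran from 10.82 ± 0.24 in cKI ileum to 11.21 ± 0.19 in WT ileum, and Pla2g2a means from 8.56 ± 0.55 in control ileum to 12.00 ± 0.54 in the jejunum labelled cKO, with no step between neighbours past the threshold for either gene.

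Over the 15 arrays, Lyz1, Mmp7 and Nupr1 varied together, with Pearson r of 0.83 between Lyz1 and Mmp7, 0.87 between Mmp7 and Nupr1 and 0.73 between Lyz1 and Nupr1. Ang4 followed Lyz1 by 0.70 and Mmp7 by 0.41, whereas Itln1 was near 0 with Lyz1, Mmp7 and Nupr1. Pla2g2a had a negative r with each of the other 5 genes, weak with Itln1 (-0.15) and strongest with Ang4 (-0.67) and Lyz1 (-0.54). The 3 arrays labelled cKO had the lowest Ang4 signals of all and Pla2g2a signals between 11.53 and 12.59. These correlations describe points that share 5 groups and array scaling, and carry no test. The first array labelled cKO was the lowest of all 15 for Lyz1 and Mmp7 and the lowest of its group for Nupr1 and Itln1, but the highest of its group for Ang4. Similarly, the third cKI array was the lowest of its group for Lyz1, Mmp7, Nupr1, Itln1 and Pla2g2a.

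The genes most like each of the 6 over the 15 arrays were named by the highest Pearson r. Habp2, which encodes a hyaluronan-binding serine protease and is itself listed as a Paneth cell marker, stood first for Nupr1 (r = 0.95) and second for Mmp7 (r = 0.92), and within groups r was 0.79 and 0.81. Foxa3, a forkhead transcription factor gene, stood first for Mmp7 (0.93), followed after Habp2 by Hs6st1 (0.92), Lyz2 (0.91) and Pllp (0.89). After Habp2, Nupr1 was followed by Pdia5 (0.95), a disulfide isomerase gene of the secretory pathway, Agr2 (0.94), a mucin-folding gene of goblet cells, S100a16 (0.94) and Fasn (0.92), the fatty acid synthase gene. Lyz1 was nearest to Pithd1 (0.95), Rhoq, Det1, Psmd10 and Triap1, Itln1 to Cwc25 (0.93), Pcnp, Dnajb1, Lrrc45 and Dhx8, and Ang4 to Fam126a (0.92), 1110002L01Rik, Micos13, Aunip and 5830417I10Rik. For Pla2g2a the highest r was lower, at 0.80 with Xrcc3, followed by Mapre2, Mad1l1, Vwa5a and Mrpl20. No test of these genes is given, since they were picked for their likeness on the same arrays.

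**Figure D4:**
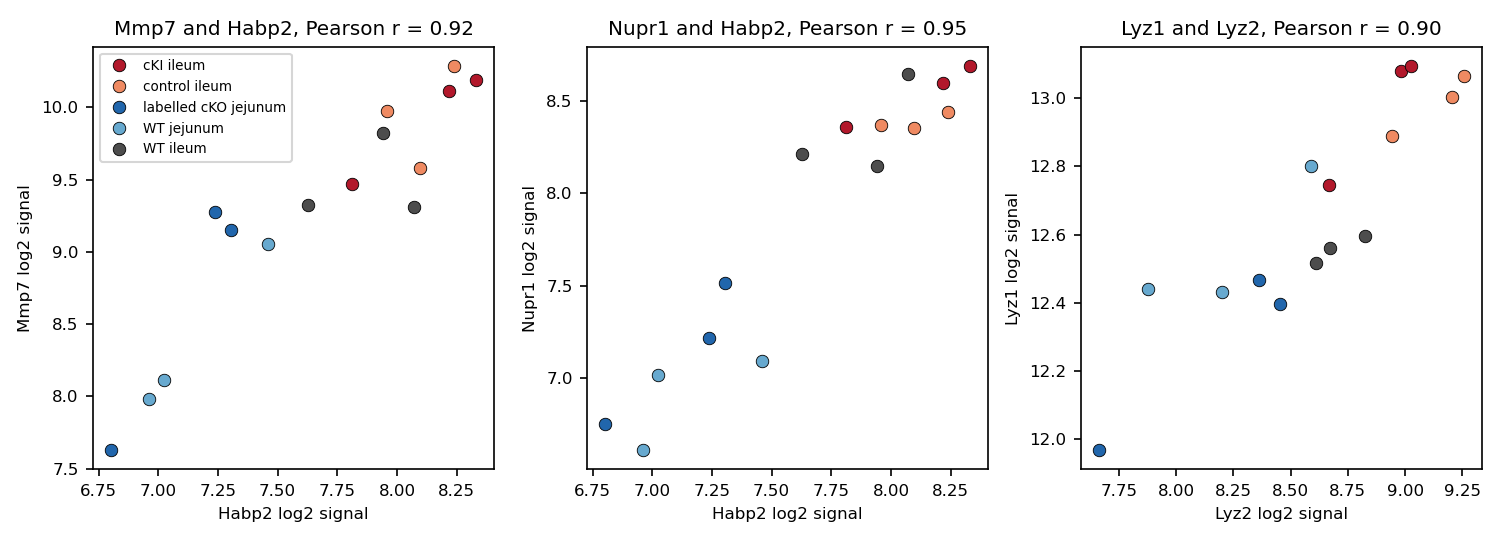
Log2 signals of Mmp7 and Habp2, Nupr1 and Habp2, and Lyz1 and Lyz2 on the 15 arrays, one point per array and a colour for each group. Pearson r is 0.92, 0.95 and 0.90, and in the third panel the first array labelled cKO has the lowest signal of both lysozyme genes.

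Lyz2, the lysozyme gene of macrophages and other myeloid cells, followed Lyz1 with r = 0.90 over the arrays and 0.93 within groups. Its signal was 7.67, 8.46 and 8.36 in the jejunum labelled cKO, against 8.59, 7.88 and 8.20 in WT jejunum, and 8.67, 8.61 and 8.82 in WT ileum. Lyz2 was not called in cKI against control ileum (-0.24 ± 0.20), the jejunum labelled cKO against WT jejunum (-0.06 ± 0.20) or WT jejunum against WT ileum (-0.48 ± 0.20, limma adjusted p = 0.115). In cKI ileum against WT jejunum, where Lyz1 was called higher, Lyz2 was called higher as well (0.67 ± 0.20, limma adjusted p = 0.0162), in 3 of the 6 fits that left out an array. The coding sequences of Lyz1 and Lyz2 are closely alike, as are those of the intelectin genes and of the angiogenin genes, and how far probes share transcripts of such copies was not tested. The Itln1 cluster lists a second intelectin transcript besides its own. Ang2, Ang5 and Ang6, relatives of Ang4, stayed below the filter on every array, at 2.15 to 4.77. Myeloid markers, as the other possible source of lysozyme transcripts, had 9 tested genes with array means of 5.61 to 5.81 in the jejunum labelled cKO, 5.55 to 5.79 in WT jejunum and 5.85 to 6.03 in WT ileum. Of these 9, which include Lyz2, Cd14 was called higher in the jejunum labelled cKO than in WT jejunum, and 2 were lower in WT jejunum than in WT ileum, Cd14 (-1.13 ± 0.17) and Itgam (-1.38 ± 0.23). Of all genes tested, 5.17% were called higher in the first of these comparisons and 7.91% lower in the second. The part of the myeloid genes in the lysozyme signals was not tested.

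Of the alpha-defensins, the peptides that Mmp7 activates, 3 of 44 listed symbols had a cluster of their own, and these were tested as Defa24, Defa39 and AY761185. Defa39 had 8.08, 9.70 and 9.58 in the jejunum labelled cKO, against 10.65, 9.89 and 10.76 in WT jejunum, without overlap. The difference of -1.31 ± 0.40 was called (limma adjusted p = 0.0406), but without the first array labelled cKO it was -0.79 (adjusted p = 0.149), without WT jejunum array 1 or 3 the adjusted p was 0.132 and 0.124, and with median centring it was 0.0501. Defa39 was 8.74, 8.54 and 9.60 in WT ileum and so lay higher in WT jejunum (1.48 ± 0.40, limma adjusted p = 0.0143), a call kept in 2 of the 6 fits that left out an array. It was 11.90, 12.02 and 11.25 in cKI ileum, against 10.98, 10.28 and 10.55 in control ileum. These groups did not overlap, but the difference of 1.12 ± 0.40 was not called (limma adjusted p = 0.213). Control ileum lay above WT ileum in Defa39 (1.64 ± 0.40, limma adjusted p = 0.00688), and this call held with each of the 6 arrays left out, at adjusted p-values up to 0.0347. Defa24 and AY761185 were not called in cKI against control ileum, in the jejunum labelled cKO against WT jejunum, between the WT regions or in control against WT ileum. In cKI ileum against WT jejunum all 3 defensins were called higher, where 25.5% of all genes tested were called higher and 16.3% lower. Defa39 (1.29 ± 0.40, limma adjusted p = 0.0169) and AY761185 (0.53 ± 0.17, adjusted p = 0.0223) kept the call in 3 of the 6 fits that left out an array, and Defa24 (0.62 ± 0.24, adjusted p = 0.0483) in 1 of the 6. A further 6 clusters carried only alpha-defensin symbols, several to a cluster, and none of the 6 was called in any of the 6 comparisons. Among 872 tested clusters with several symbols, 0 were called in cKI against control ileum, 5.62% in the jejunum labelled cKO against WT jejunum, 10.9% between the WT regions, 41.2% in control against WT ileum, 9.06% in the jejunum labelled cKO against WT ileum and 55.2% in cKI ileum against WT jejunum. The differences of the 6 defensin clusters lay between -0.04 and 0.06 in cKI against control ileum, and between -0.34 and -0.13 in the jejunum labelled cKO against WT jejunum.

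**Figure D5:**
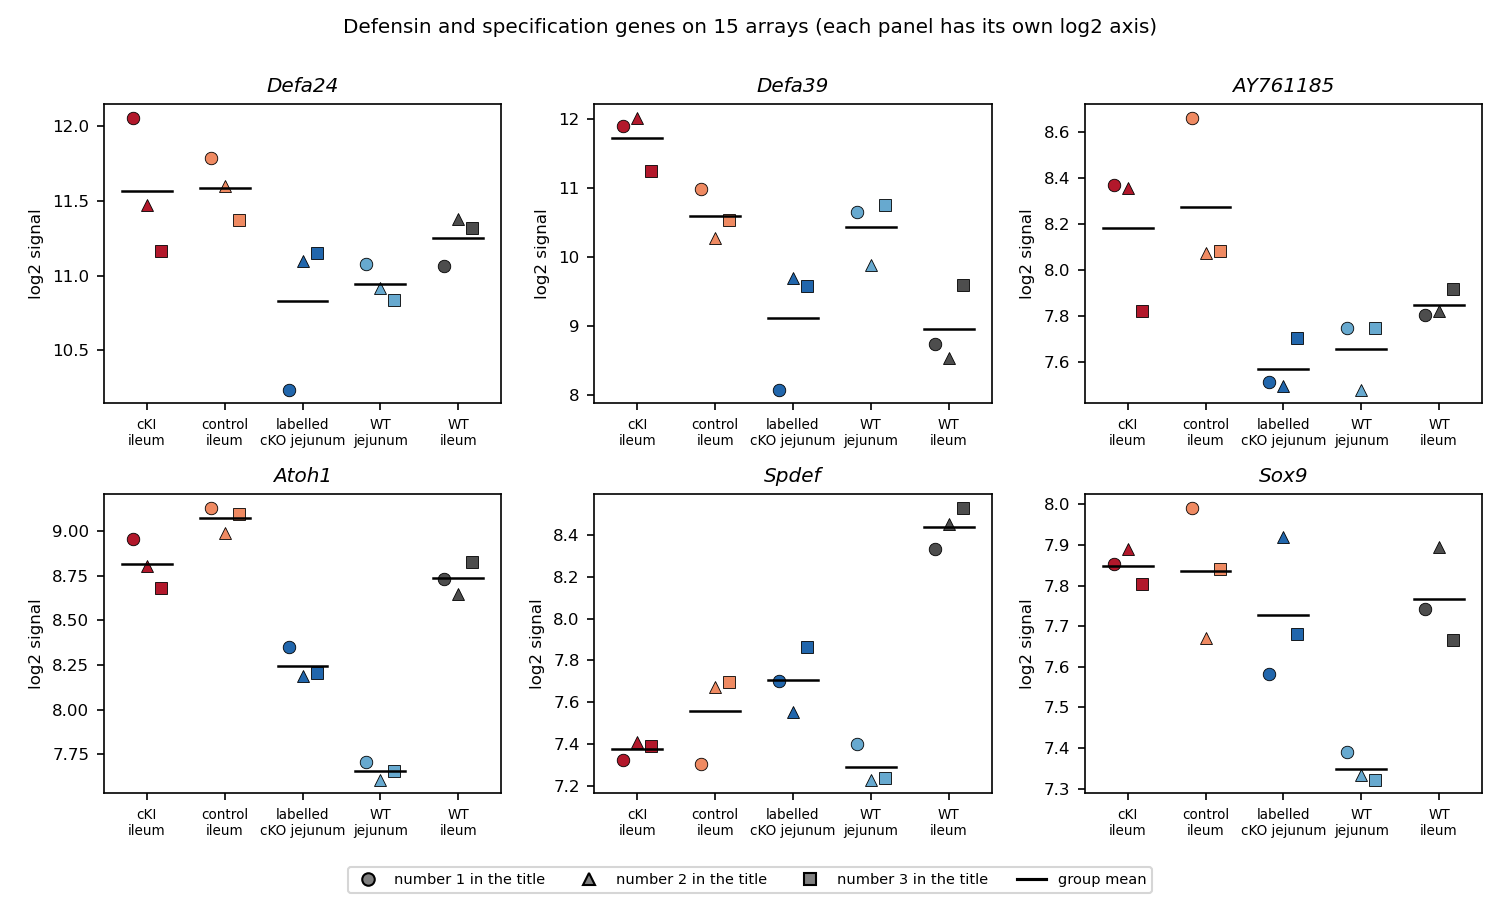
Deposited log2 signal of Defa24, Defa39, AY761185, Atoh1, Spdef and Sox9 (vertical axes, one scale per panel) on the 15 arrays by group, with a symbol for each replicate number and a line at the group mean. Defa39 is at 11.25 or higher on the cKI arrays, and Atoh1 lies between 8.19 and 8.35 on the arrays labelled cKO, against at most 7.71 on the WT jejunum arrays.

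Other markers attributed to Paneth cells moved in both directions. Between the WT regions, 3 of 17 tested markers were higher and 6 lower in jejunum, with a median difference of -0.19, beside 13.4% and 7.91% of all genes. Cd177, which encodes a surface glycoprotein, was lower (-2.87 ± 0.27, limma adjusted p = 2.80e-06), as were Copz2 (-0.73 ± 0.11), a coatomer subunit gene, and Kit (-0.85 ± 0.14), a receptor tyrosine kinase gene. Guca2b, the uroguanylin gene, was higher (1.83 ± 0.24, limma adjusted p = 5.15e-05). In the jejunum labelled cKO against WT jejunum, 1 of 17 was called, beside 12.8% of all genes, namely Kit (0.51 ± 0.14, limma adjusted p = 0.0235), and it was called in 2 of the 6 fits that left out an array. In cKI against control ileum, 0 of 17 was called, beside 0.764% of all genes. The nearest was the pentraxin gene Mptx1 (0.88 ± 0.31, limma adjusted p = 0.211), which passed with the replicate number as a block (adjusted p = 0.0417). In control against WT ileum, 5 of 17 were higher and 2 lower, beside 19.3% and 8.61% of all genes, with Clps, the colipase gene, higher (1.87 ± 0.21) and Mptx1 lower (-1.61 ± 0.31).

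Of 18 tested genes for Paneth cell specification and crypt position, 7 were lower and 1 higher in WT jejunum than in WT ileum, beside 7.91% and 13.4% of all genes. Their median was -0.24, and 3 to 7 were lower when an array was left out. Atoh1, the factor that commits progenitors to secretory fates, had 7.71, 7.61 and 7.66 in WT jejunum, against 8.73, 8.65 and 8.83 in WT ileum (-1.08 ± 0.10, limma adjusted p = 1.74e-06). Spdef, a maturation factor of goblet and Paneth cells, was also lower in WT jejunum (-1.15 ± 0.12), as was the ephrin receptor gene Ephb3 (-0.62 ± 0.14), which positions Paneth cells in the crypt. In the jejunum labelled cKO against WT jejunum, 4 of 18 rose and none fell, beside 5.17% and 7.65% of all genes, with a median of 0.11 (1 to 3 rose with an array left out). Atoh1 had 8.35, 8.19 and 8.21 in the jejunum labelled cKO (0.59 ± 0.10, limma adjusted p = 0.000954), above every WT jejunum array. Ets2 (0.36 ± 0.10), Spdef (0.42 ± 0.12) and Sox9 (0.38 ± 0.11) passed as well, but each lost its call in at least 4 of the 6 fits that left out an array, whereas Atoh1 kept its call in all 6. None of the 18 was called in cKI against control ileum, where 0.764% of all genes were called and Atoh1 was -0.26 ± 0.10 (limma adjusted p = 0.247). Markers of goblet cells, the sister secretory lineage, moved in the same comparisons, with 7 of 15 higher and none lower in the jejunum labelled cKO against WT jejunum (4 to 7 with an array left out), and none higher and 11 of 15 lower in WT jejunum against WT ileum. Their array means were 8.91 to 8.97 in the jejunum labelled cKO, 8.47 to 8.59 in WT jejunum and 9.13 to 9.22 in WT ileum. Villus enterocyte markers went the other way, with 4 of 13 lower in the jejunum labelled cKO against WT jejunum and 10 of 13 higher in WT jejunum against WT ileum. Crypt stem cell markers, of the compartment beside the Paneth cells, were higher for 4 of 15 genes in the jejunum labelled cKO against WT jejunum (median 0.12, 2 to 7 with an array left out) and lower for 5 of 15 in WT jejunum against WT ileum (median -0.41). None of 21 proliferation genes was called in either comparison. Stromal markers were lower in WT jejunum than in WT ileum for 8 of 12 genes, with array means of 4.94 to 5.16 in WT jejunum and 5.63 to 6.04 in WT ileum. The background shares were 5.17% higher and 7.65% lower for the jejunum labelled cKO against WT jejunum, and 13.4% higher and 7.91% lower between the WT regions. The part of such cell proportions in the results for Nupr1, Mmp7 and Ang4 was not tested.

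Among 9 tested signals of the Paneth cell niche, Bst1, which encodes a cyclic ADP-ribose-forming enzyme of Paneth cells, and the Notch ligand gene Dll1 were higher in WT jejunum than in WT ileum, by 3.40 ± 0.37 and 1.21 ± 0.15. The epidermal growth factor receptor ligand gene Ereg was lower there (-1.81 ± 0.31, limma adjusted p = 0.000622). In the jejunum labelled cKO against WT jejunum, the called genes were Dll1 (-0.75 ± 0.15) and Bst1 (-1.38 ± 0.37), which fell, and Ereg (1.44 ± 0.31), which rose. The Bst1 call there held in 2 of the 6 fits that left out an array. None of the 9 was called in cKI against control ileum, beside 0.764% of all genes. Of all genes tested, 13.4% were called higher and 7.91% lower between the WT regions. The shares were 5.17% and 7.65% in the jejunum labelled cKO against WT jejunum.

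Family relatives of the 6 genes gave 10 tested genes. Of the secreted phospholipases, Pla2g2f, of the same group as Pla2g2a, was lower in WT jejunum than in WT ileum (-1.02 ± 0.20, limma adjusted p = 0.00161) in every fit that left out an array. It was also lower in the jejunum labelled cKO than in WT ileum (-0.90 ± 0.20, adjusted p = 0.0162), a call kept in 4 of the 6. Pla2g10 was lower in WT jejunum than in WT ileum (-0.79 ± 0.12) and higher in the jejunum labelled cKO than in WT jejunum (0.52 ± 0.12, limma adjusted p = 0.00708), and Pla2g12b ran the other way, at 1.15 ± 0.19 and -0.64 ± 0.19, the second of which held in 2 of the 6 fits that left out an array. Of the metalloproteinases, Mmp14 was higher in the jejunum labelled cKO than in WT jejunum (0.85 ± 0.17, limma adjusted p = 0.00330), as was Mmp2 (0.44 ± 0.13), which kept its call in 1 of the 6 fits that left out an array. Of the 10 relatives, 1 was called higher and 3 lower between the WT regions, beside 13.4% and 7.91% of all genes. In the jejunum labelled cKO against WT jejunum, 3 were higher and 1 lower, beside 5.17% and 7.65% of all genes. Against WT ileum 1 was higher and 1 lower, beside 3.26% and 1.84%. In cKI against control ileum, 0 of 10 relatives was called, beside 0.764% of all genes.

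Antimicrobial proteins that are not specific to Paneth cells included genes with large regional differences. Reg1, a secreted lectin-family gene, had 10.87, 12.25 and 12.07 in WT jejunum, against 4.20, 4.54 and 5.16 in WT ileum (7.10 ± 0.36, limma adjusted p = 4.98e-09). The WT ileum signals lay around the level filter of 4.91, so the size of that difference is uncertain. Reg1 was 6.61, 6.91 and 6.35 in the jejunum labelled cKO, a difference from WT jejunum of -5.10 ± 0.36. Nos2, the inducible nitric oxide synthase gene, and Duox2, a hydrogen peroxide-forming oxidase gene, were lower in WT jejunum than in WT ileum by -3.75 ± 0.36 and -4.06 ± 0.39, and higher in the jejunum labelled cKO than in WT jejunum by 3.46 ± 0.36 and 3.66 ± 0.39. The counts were 1 of 13 tested genes higher and 4 lower between the WT regions, beside 13.4% and 7.91% of all genes. In the jejunum labelled cKO against WT jejunum, 2 were higher and 1 lower, beside 5.17% and 7.65% of all genes. In cKI against control ileum 0 of 13 was called, beside 0.764% of all genes.

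Nupr1 is known as a stress-induced gene, and 25 genes of the unfolded protein and integrated stress responses were tested beside it. Between the WT regions 1 was higher and 5 lower in jejunum, beside 13.4% and 7.91% of all genes, the lower ones including Ern2 (-0.99 ± 0.11, limma adjusted p = 7.75e-06), the epithelial stress sensor, and the chaperone genes Sdf2l1 (-0.61 ± 0.12) and Hyou1 (-0.43 ± 0.13, called in 2 of the 6 fits that left out an array). Trib3, a pseudokinase gene induced through ATF4 and CHOP, was higher in WT jejunum (0.94 ± 0.24, limma adjusted p = 0.0120). In the jejunum labelled cKO against WT jejunum, Ern2 rose (0.65 ± 0.11), and Herpud1 (-1.11 ± 0.23) and Trib3 (-0.80 ± 0.24) fell, the last in 2 of the 6 fits that left out an array, with Nupr1 not called. The shares of all genes in that comparison were 5.17% higher and 7.65% lower. In cKI against control ileum 0 of 25 was called, beside 0.764% of all genes, the nearest being Sdf2l1 (0.45 ± 0.12, limma adjusted p = 0.0948). The part of stress responses in the Nupr1 differences was not tested.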

How the data were processed

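Per the labels, epithelial RNA was purified with RNeasy columns, biotin-labelled by a whole-transcript method and hybridised to Mouse Gene 1.0 arrays. The authors deposited 1 table of log2 values for 15 arrays; Partek is named in the submitters' processing notes, but the sources used here give no version, background correction or normalization for it. The log2 scale was read from the values, which run from 0.893 to 13.9. Of 35556 transcript clusters, 21789 carried 1 gene symbol, 1621 several and 12146 none in the platform annotation. Where a gene had more than 1 cluster (999 genes), the brightest on average stood for it.

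Genes entered the fit when their highest group mean was above 4.91, the median of all values, which left 11784 genes and removed 8154. The deposited log2 values were fitted with limma 3.58.1 in R 4.3.3, with 1 mean per group over all 15 arrays, moderated variances, 10 residual degrees of freedom, two-sided tests and Benjamini-Hochberg adjustment at 0.05. The scripts were tested on simulated data. Tables and figures used Python 3.11.15, pandas 2.3.3 and matplotlib 3.10.9. Promoter windows are RefSeq's on GRCm38.p6.

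The 6 genes, the gene lists and the tests were chosen with earlier results of these data known. Besides the 6 genes and Gata4, the text names up to 4 genes per list and comparison with the smallest p, and the 5 genes most correlated with each of the 6 over the arrays.

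Arrays of the same replicate number deviated together in cKI and control ileum (r = 0.13, 0.18 and 0.26) and in WT jejunum and WT ileum (r = 0.33, 0.22 and 0.16), and were taken as pairs there from the data, since the labels state no pairing. Calls, list counts and background shares in these comparisons are nevertheless those of the fit without the block, unless the block is named. Alternatives were the level filter, the scaling, the mean over clusters, the 6 arrays compared, the replicate block, limma-trend, array weights and each array left out. Refits of the lists, of their named genes and of the 6 genes in the other 4 pairs of groups were chosen after seeing the data.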

Additional observations from a re-analysis of the deposited data

How the results depend on the processing

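Of the calls of the 6 genes, Ang4 in the jejunum labelled cKO against WT jejunum and Nupr1 in WT jejunum against WT ileum held in each fit that left out an array. Ang4 and Nupr1 in the jejunum labelled cKO against WT ileum held as well (limma adjusted p up to 0.00549 and 0.0131). So did Nupr1 and Mmp7 in cKI ileum against WT jejunum (limma adjusted p up to 0.000125 and 0.0257). No called difference of the 6 genes reversed under any setting run. Over the 6 comparisons, the settings other than leaving out single arrays included the fit with only the 6 arrays compared. In these settings 298 values kept direction and side of the threshold, 15 that were not called changed sign, 7 gained and 4 lost a call. With an array left out the numbers were 180, 24, 2 and 10. Mmp7 between the WT regions (adjusted p = 0.0542) passed after quantile normalization (0.0290), with the stricter filter (0.0467), with only those 6 arrays (0.0190), with limma-trend (0.0497) and with array weights (0.00599), and missed it with no filter (0.0714) and median centring (0.0638). Lyz1 in control against WT ileum also lost its call with no filter (0.0582), and in cKI ileum against WT jejunum with median centring (0.0628). Itln1 in control against WT ileum was called with array weights (-0.45, adjusted p = 0.0197). In the 4 pairs of groups outside these 6 comparisons, Pla2g2a in the jejunum labelled cKO against control ileum lost its call with the replicate block (adjusted p = 0.0506), Lyz1 lost its call in WT jejunum against control ileum with median centring (0.0790) and in cKI against WT ileum with median centring (0.0621) and the block (0.0527), and Itln1 gained one there after quantile normalization (-0.48, adjusted p = 0.0308). The cause of these changes was not tested.

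Genes called in cKI against control ileum numbered 90, and 52 with no filter, 21 with only the 6 arrays compared, 766 with array weights and 20 to 192 with an array left out (20 without cKI array 1, 38 without cKI array 3, 192 without control array 1, 40 without control array 2, and 39 without control array 3). Between the WT regions 2507 were called, 3967 with array weights and 1813 to 2377 with an array left out. In the jejunum labelled cKO against WT jejunum 1510 were called, and 990 to 1557 with an array left out, the fewest without the first WT jejunum array (990) and the second (999). Against WT ileum the jejunum labelled cKO had 601 calls, 300 with only the 6 arrays, and 283 to 592 with an array left out (283 without the second WT ileum array, 371 without WT ileum array 3). The ranges were 2425 to 2837 around 3290 calls in control against WT ileum, and 3880 to 4631 around 4924 in cKI ileum against WT jejunum.

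With the replicate block, 125 genes were called in cKI against control ileum and 2363 between the WT regions, where the numbers were taken as pairs. In these 2 comparisons the block added the call of Mmp7 between the WT regions and changed no other call of the 6 genes. Elsewhere the numbers did not pair the arrays by the same check (correlations from -0.27 to 0.47), and the block gave 1484, 3070, 776 and 4720 calls in the jejunum labelled cKO against WT jejunum, control against WT ileum, the jejunum labelled cKO against WT ileum and cKI ileum against WT jejunum. There Lyz1 in control against WT ileum lost its call (adjusted p = 0.0625).

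Scaling moved the share of called genes that were higher. After quantile normalization it was 47.9% in place of 69.1% in control against WT ileum (58.6% centred), 52.0% in place of 62.8% between the WT regions, and 51.2% in place of 40.3% in the jejunum labelled cKO against WT jejunum. The median of all genes in control against WT ileum was -0.02 after quantile normalization, against 0.08. Depth has no counterpart here, and 3 arrays a group, probes shared by close copies and unstated animals limit what these values can show.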
